A study of Mus musculus with 9 samples.

Results

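Reelin is a large secreted glycoprotein that guides newborn neurons to their layer in the cerebral cortex. The genes described here are 10 components of its signalling pathway: the ligand Reln, the receptors Vldlr and Lrp8, the intracellular adaptor Dab1, the kinase Fyn, the adaptors Crk and Crkl, and the dynein regulators Pafah1b1 (Lis1), Nde1 and Ndel1. They were taken by symbol from the 53379 gene rows of the deposited count table. Each of the 10 had exactly 1 row and all 10 were among the 17760 genes that passed the filter on low counts. The RNA came from cortex of C57BL/6 mouse embryos that were electroporated in utero at E13.5 (embryonic day) and collected at E15.5, and only GFP+ cells sorted by FACS were used. All 3 groups, of 3 biological replicates each, share the electroporation, the interval of 48 hours and the sort. They differ in the short hairpin RNA (shRNA): 3 shRNAs against circSlc45a4, a circular RNA from the Slc45a4 gene (the group is called circ-KD below), 2 shRNAs against the linear Slc45a4 mRNA (mRNA-KD), or 1 scrambled sequence (scramble). The effect of each shRNA on its own cannot be read from these libraries, and the libraries hold mixed GFP+ cells, so fewer cells of a type and less RNA per cell cannot be told apart.

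In the developing cortex Reelin is made mainly by Cajal-Retzius cells at the surface of the cortical wall. It binds the lipoprotein receptors Vldlr and ApoER2 (the product of Lrp8) on migrating neurons, and the receptors' tails hold Dab1, which is phosphorylated on tyrosines by Fyn and Src. Phosphorylated Dab1 recruits Crk and Crkl and is then marked for degradation. Loss of Reln, of Dab1 or of both receptors inverts the order of the cortical layers, and Lis1, Nde1 and Ndel1, which act with the motor dynein in nuclear movement, are needed for the same migration.

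Total counts ranged from 21073174 to 45469298 per library, and the limit set by 3 counts lay between 0.0671 and 0.143 CPM (counting error only). Levels are in CPM, each count relative to the TMM-scaled total of its library, and are given for replicates 1, 2 and 3 in that order. The linear Slc45a4 transcript stood at 31.4, 33.6 and 34.0 CPM in the scramble libraries, at 25.4, 25.3 and 24.7 CPM in circ-KD and at 13.3, 18.5 and 17.4 CPM in mRNA-KD. It fell in mRNA-KD (log2 fold change -1.01 ± 0.12 SE, adjusted p = 1.08e-04, edgeR's quasi-likelihood test) and less in circ-KD (-0.39 ± 0.12, adjusted p = 0.0245), where the call was lost without any 1 library except scramble replicate 1 (-0.40 to -0.37) and with the log2 level of Xist as a term (-0.24). Libraries were selected for polyA RNA, which a circular RNA lacks, so the level of circSlc45a4 was not read. Xist, made from the inactive X chromosome of female cells, was at or below 0.239 CPM in all 3 scramble libraries, at 635, 264 and 428 CPM in circ-KD and at 1549.6, 637 and 0.194 CPM in mRNA-KD. The groups thus differ in the share of RNA from female embryos.

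The sequence before the start of a gene is shown for the 3 members that the results turn on most, the ligand Reln, with the largest fitted change in circ-KD, and Vldlr and Crkl, with the smallest p among members in mRNA-KD. Each is the 250 bases before the start site, read 5′ to 3′ on the gene's strand from RefSeq (GRCm38.p6): chr5:22344706-22344955 (minus strand) for Reln, chr19:27216234-27216483 (plus strand) for Vldlr and chr16:17451735-17451984 (plus strand) for Crkl. Capitals mark GC boxes (GGGCGG or its reverse complement CCGCCC) and CCAAT boxes (CCAAT or ATTGG), which do not overlap each other here.
Reln: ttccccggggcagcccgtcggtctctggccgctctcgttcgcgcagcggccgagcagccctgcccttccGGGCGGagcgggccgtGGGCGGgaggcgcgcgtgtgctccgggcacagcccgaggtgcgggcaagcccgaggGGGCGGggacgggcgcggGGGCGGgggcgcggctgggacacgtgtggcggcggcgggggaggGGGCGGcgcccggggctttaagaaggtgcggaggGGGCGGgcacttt
Vldlr: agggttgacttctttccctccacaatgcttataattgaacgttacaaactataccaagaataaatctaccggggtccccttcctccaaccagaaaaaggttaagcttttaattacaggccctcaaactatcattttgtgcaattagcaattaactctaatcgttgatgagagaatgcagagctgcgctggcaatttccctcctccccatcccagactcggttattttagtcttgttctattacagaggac
Crkl: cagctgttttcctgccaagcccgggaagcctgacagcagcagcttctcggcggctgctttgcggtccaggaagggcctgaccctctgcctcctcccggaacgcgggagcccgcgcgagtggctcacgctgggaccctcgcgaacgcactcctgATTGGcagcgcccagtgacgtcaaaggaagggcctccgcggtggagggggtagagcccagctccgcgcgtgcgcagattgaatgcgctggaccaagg

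The window before Reln held 6 GC boxes, 37 CpG dinucleotides and 80.0% G and C. The window before Vldlr held neither box, 5 CpG and 41.6% G and C, and that before Crkl held 1 CCAAT box, 23 CpG and 67.6% G and C. Of the 32851 RefSeq windows of the same length, 32.7% held a GC box and 33.8% a CCAAT box on either strand. The E-box CANNTG, the core motif of basic helix-loop-helix factors, stood in 66.2% of all windows, among them those of Reln, Dab1, Crkl and Ndel1. A RefSeq start was found for all 10 members, and for the 3 members with several, the start nearest to the annotated gene start was used (for Ndel1 18723 bases away). Letter matches describe the sequence and do not show that a factor binds there.

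Reln (ENSMUSG00000042453.14, GRCm38 chromosome 5, 21884454 to 22344702, minus strand) was the member that varied most. It stood at 20.7, 26.4 and 53.9 CPM in the scramble libraries (33.7 ± 17.8, SD, n = 3), at 244, 137 and 70.2 CPM in circ-KD (150.3 ± 87.8) and at 21.1, 12.2 and 12.4 CPM in mRNA-KD (15.2 ± 5.10). Every circ-KD library lay above every other library, and mRNA-KD overlapped scramble through its replicate 1. Reln rose 4.43-fold in circ-KD against scramble (log2 fold change 2.15 ± 0.41, adjusted p = 0.00182, edgeR's quasi-likelihood test, over all genes). The call held without any 1 library, with values from 1.60 without circ-KD replicate 1 to 2.67 without scramble replicate 3.

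In mRNA-KD the fitted Reln change was -1.16 ± 0.42, which did not pass the threshold (adjusted p = 0.0717, edgeR). Without scramble replicate 3 the value was -0.63. Without scramble replicate 1 it was -1.40 and passed, as it did with only the 6 libraries compared (-1.17). Between the knockdowns Reln was 9.87-fold higher with the circSlc45a4 shRNAs (3.30 ± 0.43, adjusted p = 1.58e-04), and the value was 2.77 to 3.64 when each library was left out. Over the 9 libraries the highest Reln level was 20.1-fold the lowest. The replicates of 1 group also differed, with a coefficient of variation of 58.4% in circ-KD, 33.5% in mRNA-KD and 52.8% in scramble. Reln shares 246 of its 23738 exonic bases with the antisense gene Gm10475, which had 0 counts in all 9 libraries.

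Vldlr and Lrp8, the receptors, did not pass the test in circ-KD, and in mRNA-KD Vldlr rose while the lower level of Lrp8 did not pass. Vldlr (ENSMUSG00000024924.14, chromosome 19, 27216484 to 27254231, plus strand) stood at 51.7, 48.1 and 53.6 CPM in the scramble libraries, at 54.1, 56.2 and 54.1 CPM in circ-KD and at 76.7, 70.0 and 71.3 CPM in mRNA-KD. The 3 mRNA-KD libraries lay above the other 6. Vldlr rose 1.42-fold there against scramble (0.51 ± 0.08, adjusted p = 7.33e-04, edgeR's quasi-likelihood test). In circ-KD its change was 0.10 ± 0.08 (adjusted p = 0.375), and it was lower than in mRNA-KD (-0.41 ± 0.08, adjusted p = 0.00213). Both calls held under every alternative that was run.

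Lrp8 (ENSMUSG00000028613.14, chromosome 4, 107802261 to 107876840, plus strand) stood at 486, 489 and 439 CPM in the scramble libraries, at 501, 437 and 496 CPM in circ-KD and at 300.0, 391 and 436 CPM in mRNA-KD. The mRNA-KD libraries lay just below the other groups without overlap, with replicate 3 close to the lowest libraries of both. Its change against scramble was -0.33 ± 0.12 (adjusted p = 0.0701, edgeR), which passed without mRNA-KD replicate 3 (-0.45) and with the Wald test of DESeq2 (-0.33). The change in circ-KD was 0.02 ± 0.12 (adjusted p = 0.922). Lrp8 was higher in circ-KD than in mRNA-KD (0.35 ± 0.12, adjusted p = 0.0437), a call lost without circ-KD replicate 1 or 3 (0.32 each) and without mRNA-KD replicate 1 (0.21) or 2 (0.38). The ratio of Vldlr to Lrp8 per kilobase of exon was 0.111, 0.103 and 0.127 in scramble, 0.113, 0.134 and 0.114 in circ-KD and 0.267, 0.187 and 0.171 in mRNA-KD, the group in which every ratio was above those of the other 6 libraries.

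Dab1 (ENSMUSG00000028519.16, chromosome 4, 103619359 to 104744844, plus strand), the adaptor without which the signal does not pass from the receptors, fell in circ-KD, the group in which Reln rose. It stood at 255, 196 and 163 CPM in the scramble libraries (205 ± 46.8), at 129, 152 and 161 CPM in circ-KD (147 ± 16.2) and at 204, 270.2 and 282 CPM in mRNA-KD (252 ± 42.2). The circ-KD libraries lay below all other libraries, by a narrow margin between their replicate 3 and scramble replicate 3. Dab1 fell there against scramble (-0.47 ± 0.16, adjusted p = 0.0371, edgeR's quasi-likelihood test), a call lost without circ-KD replicate 1 (-0.39) or 2 (-0.49) and without scramble replicate 1 (-0.29) or 2 (-0.50). In mRNA-KD the change was 0.30 ± 0.15 (adjusted p = 0.198), and without scramble replicate 1 it was 0.49 and passed. The difference between the knockdowns was larger (-0.78 ± 0.16, adjusted p = 0.00282) and held under every alternative that was run, with values of -0.91 to -0.68 when each library was left out.

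Fyn (ENSMUSG00000019843.14, chromosome 10, 39368855 to 39565381, plus strand), a kinase that phosphorylates Dab1, was the only member called against scramble in both knockdowns. Its levels were 270.4, 275 and 262 CPM in scramble, 192, 198 and 219 CPM in circ-KD and 217, 231 and 235 CPM in mRNA-KD, with both knockdowns entirely below scramble. Fyn fell by 0.41 ± 0.08 on the log2 scale in circ-KD (adjusted p = 0.00150, edgeR's quasi-likelihood test), which held without any 1 library. In mRNA-KD it fell by 0.24 ± 0.08 (adjusted p = 0.0427), and that call was lost without any 1 of the 6 libraries (-0.26 to -0.20). The knockdowns overlapped each other and their difference did not pass (-0.17 ± 0.08, adjusted p = 0.123). Both comparisons with scramble use the same 3 scramble libraries.

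Crk and Crkl, the near relatives that bind phosphorylated Dab1, passed against scramble in different knockdowns. In both knockdowns all Crk values nevertheless lay above scramble and all Crkl values below it. Crk (ENSMUSG00000017776.15, chromosome 11, 75679259 to 75706908, plus strand) stood at 141, 145 and 143 CPM in the scramble libraries, at 182, 185 and 187 CPM in circ-KD and at 165, 149.7 and 156 CPM in mRNA-KD. The circ-KD libraries were the highest and lay close together. Crk rose there by 0.37 ± 0.07 (adjusted p = 0.00169, edgeR's quasi-likelihood test) and the call held without any 1 library. In mRNA-KD the change was 0.13 ± 0.07 (adjusted p = 0.202). The knockdowns differed by 0.23 ± 0.07 (adjusted p = 0.0247), a call lost without circ-KD replicate 3 (0.22) or mRNA-KD replicate 2 (0.20) or 3 (0.23).

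Crkl (ENSMUSG00000006134.3, chromosome 16, 17451987 to 17487434, plus strand) stood at 127, 134 and 131 CPM in the scramble libraries, at 115, 111 and 124 CPM in circ-KD and at 69.5, 87.0 and 92.0 CPM in mRNA-KD, where all 3 libraries lay below the other 6. It was 1.58-fold lower in mRNA-KD than in scramble (-0.66 ± 0.10, adjusted p = 5.79e-04, edgeR's quasi-likelihood test). In circ-KD the change was -0.16 ± 0.10 (adjusted p = 0.247), and the knockdowns differed by 0.50 ± 0.10 (adjusted p = 0.00254). Per kilobase of exon, the ratio of Crkl to Crk was 0.843, 0.867 and 0.857 in scramble, 0.595, 0.563 and 0.624 in circ-KD and 0.394, 0.546 and 0.552 in mRNA-KD. The groups did not overlap in this ratio, which was below scramble in every library of either knockdown.

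Of the dynein regulators, Pafah1b1 and Nde1 passed in mRNA-KD in opposite directions and Ndel1 passed in no comparison. In circ-KD edgeR, DESeq2 and limma-voom called 0 of the 3, and 1 had an unadjusted p under 0.05 by each. Of all tested genes edgeR called 27.1% there. Pafah1b1 (ENSMUSG00000020745.15, chromosome 11, 74673949 to 74724670, minus strand), the gene mutated in classical lissencephaly, stood at 372, 358 and 350.0 CPM in the scramble libraries, at 362, 333 and 372 CPM in circ-KD and at 317, 288 and 307 CPM in mRNA-KD. The last group lay below the other 6 libraries. Pafah1b1 fell there by 0.24 ± 0.07 on the log2 scale (adjusted p = 0.0390, edgeR's quasi-likelihood test), a call lost without scramble replicate 1 (-0.22), 2 (-0.25) or 3 (-0.26) and without mRNA-KD replicate 2 (-0.20) or 3 (-0.25). In circ-KD its change was -0.02 ± 0.07 (adjusted p = 0.898). The knockdowns differed by 0.23 ± 0.07 (adjusted p = 0.0390), lost without circ-KD replicate 1 (0.22) or 3 (0.19) or mRNA-KD replicate 2 (0.19) or 3 (0.24).

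Nde1 (ENSMUSG00000022678.16, chromosome 16, 14163275 to 14192928, plus strand) and Ndel1 (ENSMUSG00000018736.14, chromosome 11, 68821434 to 68871858, minus strand) encode related proteins that bind Lis1 and dynein. Nde1 stood at 27.8, 37.7 and 43.8 CPM in the scramble libraries, at 31.5, 38.2 and 37.9 CPM in circ-KD and at 68.0, 44.4 and 48.1 CPM in mRNA-KD. Replicate 1 of mRNA-KD stood highest, and replicate 2 was only just above the highest scramble library. Nde1 rose there (0.55 ± 0.17, adjusted p = 0.0432, edgeR's quasi-likelihood test), a call lost without scramble replicate 1 (0.39) or 2 (0.57) and without mRNA-KD replicate 1 (0.34) or 3 (0.62). Against scramble circ-KD gave -0.03 ± 0.17 (adjusted p = 0.926). Between the knockdowns the difference was -0.58 ± 0.17 (adjusted p = 0.0255), lost without circ-KD replicate 1 (-0.48) or 2 (-0.61) or mRNA-KD replicate 1 (-0.37). Nde1 shares 77 of its 3205 exonic bases with the antisense gene Marf1, and without a stated strand setting their reads there cannot be told apart. Ndel1 stood at 50.9, 52.1 and 45.6 CPM in the scramble libraries, at 58.7, 54.9 and 56.2 CPM in circ-KD and at 49.9, 57.8 and 51.1 CPM in mRNA-KD. Its changes were 0.19 ± 0.09 (adjusted p = 0.122) and 0.10 ± 0.09 (adjusted p = 0.491) against scramble, and the circ-KD libraries did not overlap scramble. The ratio of Nde1 to Ndel1 per kilobase of exon was 0.554, 0.733 and 0.975 in scramble, 0.544, 0.706 and 0.684 in circ-KD and 1.38, 0.780 and 0.956 in mRNA-KD, and the groups overlapped.

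**Figure D1:**
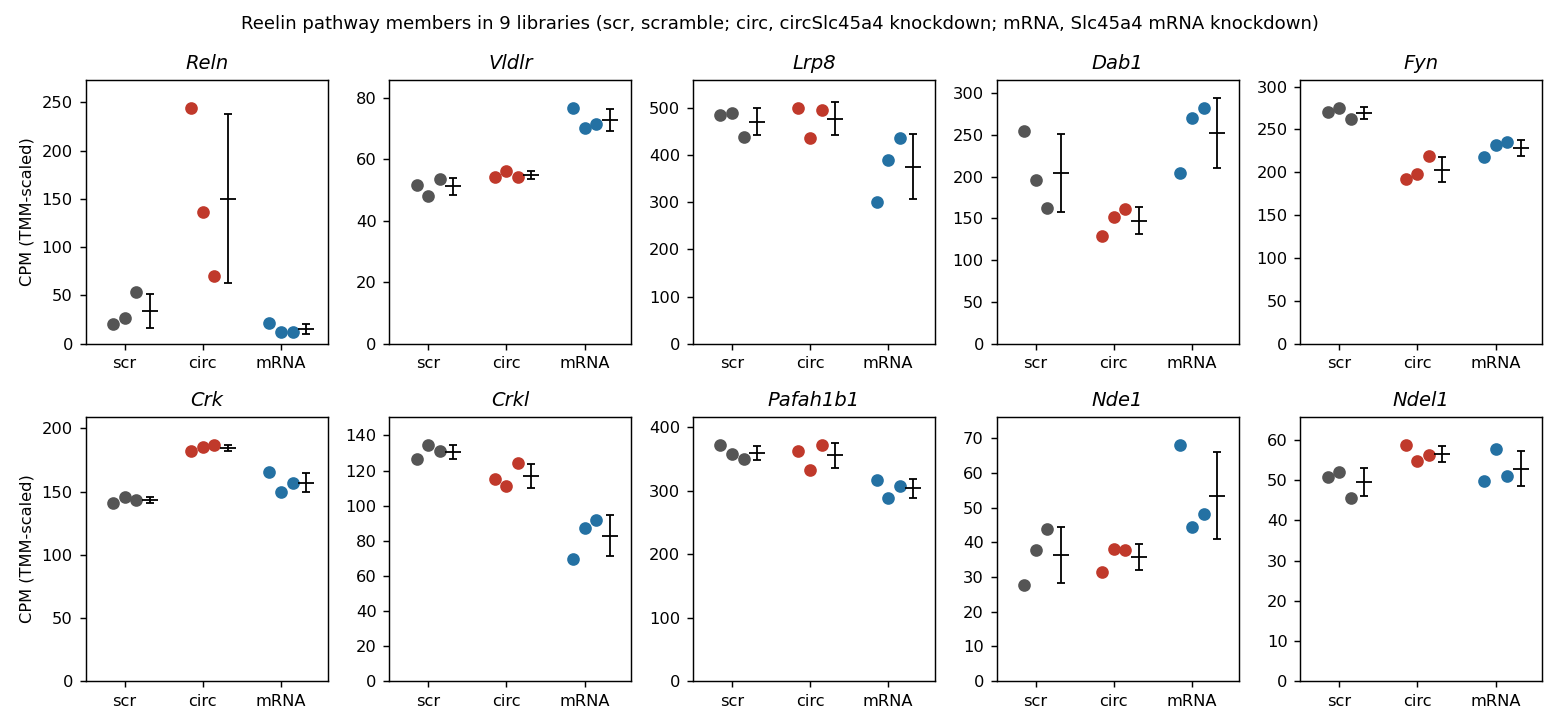
Level of each member in CPM of the TMM-scaled library total (vertical axes from 0) in the 3 libraries of scramble (scr), circ-KD (circ) and mRNA-KD (mRNA). Points are libraries and bars are mean ± SD (n = 3). Reln is highest in circ-KD (70.2 to 244 CPM), while Vldlr is highest and Crkl lowest in mRNA-KD.

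Counted over the pathway, 4 of the 10 members passed in circ-KD against scramble, Reln and Crk higher and Dab1 and Fyn lower, where 27.1% of all tested genes passed. In mRNA-KD 5 members passed, Vldlr and Nde1 higher and Fyn, Crkl and Pafah1b1 lower, against 18.0% of all tested genes. Between the knockdowns 8 passed, against 26.1%, with Reln, Lrp8, Crk, Crkl and Pafah1b1 higher and Vldlr, Dab1 and Nde1 lower in circ-KD. Groups did not overlap for 7, 7 and 8 members in these comparisons, against 43.9%, 36.1% and 40.1% of all tested genes. The members' median change was 0.00, -0.07 and 0.16 on the log2 scale, so the members did not move together in 1 direction, and the median size of their change, whatever its sign, was 0.18, 0.31 and 0.38 beside 0.28, 0.24 and 0.26 over all tested genes. Against scramble 3 members were called only in circ-KD, 4 only in mRNA-KD, 1 in both and 2 in neither. The direct comparison tests the difference between the knockdowns itself, and it did not pass for Fyn and Ndel1.

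With the log2 level of Xist as an added term, none of the 4 calls in circ-KD passed (edgeR called 0 of the 10 members, with 3 at an unadjusted p under 0.05), with values of 1.65 for Reln, -0.22 for Dab1, -0.34 for Fyn and 0.35 for Crk. In mRNA-KD 4 of the 5 calls ended, with -0.19 for Fyn, -0.49 for Crkl, -0.25 for Pafah1b1 and 0.39 for Nde1, and Vldlr passed. Between the knockdowns, where Xist was high in 5 of the 6 libraries, 7 of the 8 calls passed and Pafah1b1 did not (0.22). Since all 3 scramble libraries had almost no Xist, the effect of the shRNAs and that of the embryos' sex cannot be told apart in the comparisons with scramble from this term alone. In the comparison of the knockdowns, the Lrp8, Crk and Pafah1b1 calls were also lost with upper-quartile factors (0.29, 0.18 and 0.17) and with only the 6 libraries compared (0.34, 0.23 and 0.22). The Nde1 call in mRNA-KD was lost with limma-voom (0.52) and with only the 6 libraries compared (0.54). Without a filter on low counts the Fyn (-0.24) and Pafah1b1 (-0.25) calls in mRNA-KD and the Crk (0.24) and Pafah1b1 (0.23) calls between the knockdowns were lost, while Reln (-1.16), Lrp8 (-0.33) and Dab1 (0.30) passed in mRNA-KD. For Reln the adjusted p there was 1.56e-24 (edgeR's quasi-likelihood test), against 0.0717 with the filter at the same change and the same replicate spread. The unfiltered p is thus not a measure of a firmer Reln change.

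**Figure D2:**
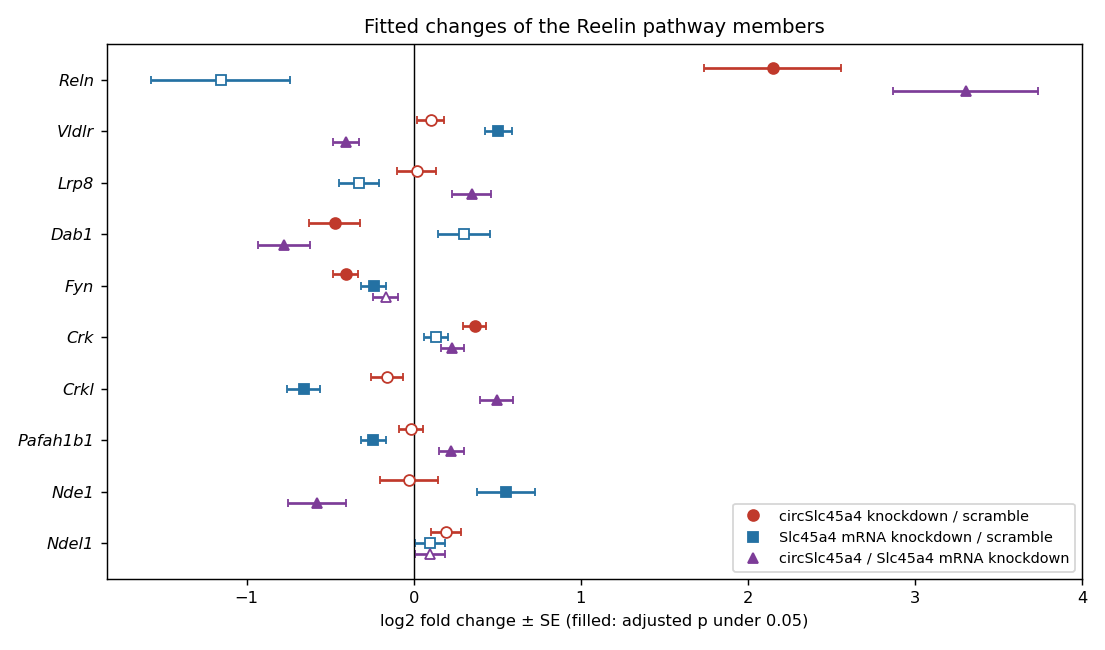
Fitted log2 fold change ± SE of each member in 3 comparisons, from edgeR's quasi-likelihood model over all 9 libraries, with filled symbols where the adjusted p was under 0.05. Reln spans the axis, from -1.16 in mRNA-KD against scramble to 3.30 between the knockdowns, while the other members stay between -0.78 and 0.55.

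Levels of different genes were compared only after division by exon length, as CPM per kilobase of the union of a gene's exons. In scramble the order was Fyn (61.7 ± 1.52, SD, n = 3), Lrp8 (44.9 ± 2.69), Pafah1b1 (37.4 ± 1.15), Crk (30.3 ± 0.475), Crkl (25.9 ± 0.769), Dab1 (25.9 ± 5.92), Ndel1 (15.2 ± 1.07), Nde1 (11.4 ± 2.52), Vldlr (5.08 ± 0.280) and Reln (1.42 ± 0.749). Only Crkl and Dab1 overlapped among neighbours in this order, and Lrp8 was the more abundant receptor in all 9 libraries. In circ-KD Reln reached 6.33 ± 3.70 and overlapped both Nde1 (11.2) and Vldlr (5.45), while Fyn (46.6) and Lrp8 (45.5) no longer differed beyond their spread. In mRNA-KD Reln was last (0.642) and Lrp8 (35.8), Crk (33.2), Dab1 (31.9) and Pafah1b1 (31.6) overlapped in turn.

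Genes whose level across the 9 libraries was most like that of a member were found by the root mean square (RMS) difference of mean-centred log2(CPM + 0.5) among 11441 genes. The libraries share their depth scaling and their groups, and the likeness is a description. Nearest to Reln were Ebf1 (RMS difference 0.296), Nhlh2 (0.414) and Mid2 (0.494). Ebf1, a transcription factor of early neurons, stood at 1.05, 1.59 and 5.80 CPM in the scramble libraries, at 24.7, 11.3 and 6.44 CPM in circ-KD and at 2.32, 0.459 and 0.415 CPM in mRNA-KD. Like Reln, it was highest in replicate 1 of circ-KD and, within scramble, in replicate 3. Nearest to Dab1 were Pik3ip1 (0.120), an inhibitor of PI3 kinase, Fahd2a (0.125) and Ank2 (0.127). Nearest to Vldlr were Capza1 (0.0488), which encodes an actin capping subunit, Zfp937 (0.0540) and Ubr7 (0.0588), and nearest to Lrp8 were Tmem151b (0.0660), Dop1b (0.0663) and Prrc2b (0.0687).

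Markers of Cajal-Retzius cells, the main cortical source of Reelin, were read in the same libraries. The summed level of the 9 markers was 54.9 to 129.5 CPM in circ-KD, 19.4 to 41.1 CPM in mRNA-KD and 35.8 to 57.8 CPM in scramble. In circ-KD most of this sum came from Nhlh2 alone, which was also rank 2 of 11441 genes in likeness to Reln. The sum is therefore not a reading of the 9 markers together. The transcription factor gene Nhlh2 stood at 20.6, 23.9 and 34.3 CPM in the scramble libraries, at 114, 74.5 and 43.4 CPM in circ-KD and at 25.4, 7.34 and 9.11 CPM in mRNA-KD. It rose in circ-KD (1.55 ± 0.41, adjusted p = 0.0124, edgeR's quasi-likelihood test), a call lost without circ-KD replicate 1 (1.16), scramble replicate 2 (1.49) and with the Xist term (0.65). In the same comparison Ndnf rose at a low level (1.00, adjusted p = 0.0441, lost without any 1 library except scramble replicate 3, 0.72 to 1.10, and with the Xist term), and Ebf3 fell from 8.42, 10.8 and 11.3 CPM to 3.33, 1.37 and 2.15 CPM (-2.15 ± 0.27, adjusted p = 8.25e-05). Between the knockdowns Nhlh2 (2.47, adjusted p = 9.49e-04, edgeR) and Ndnf (1.55, adjusted p = 0.00558) were higher in circ-KD. Ebf3 was lower there (-1.43, adjusted p = 0.00191). These 3 calls between the knockdowns held under every alternative that was run. Of the 9 markers, 4 were below 1 CPM in every library, Trp73 at 0.191 to 0.713, Calb2 at 0.0972 to 0.760, Lhx1 at 0.0324 to 0.470 and Lhx5 at 0 to 0.335 CPM. The test covered 8 of the 9. In circ-KD against scramble edgeR called 3 of the 8, beside 27.1% of all tested genes, and 1 with the Xist term. In mRNA-KD against scramble edgeR called 0 of the 8, beside 18.0%, with 2 at an unadjusted p under 0.05 (DESeq2 and limma-voom called 1 each). Between the knockdowns it called 3, beside 26.1%. The part of these markers in the Reln result was not tested.

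**Figure D3:**
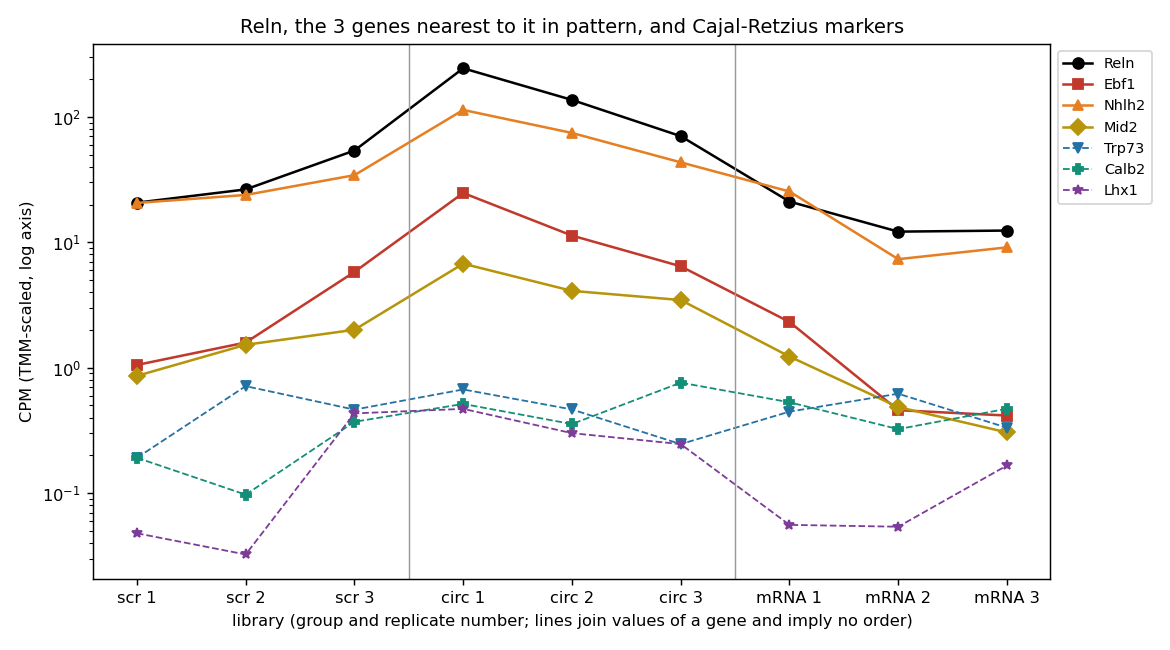
Level in CPM of the TMM-scaled total (log axis) in each of the 9 libraries. Solid are Reln and the 3 genes nearest to it in pattern (Ebf1, Nhlh2, Mid2). Dashed are Trp73, Calb2 and Lhx1, 3 of the 9 Cajal-Retzius markers. Nhlh2 is also among the 9, and Ndnf and Ebf3, which were called in circ-KD, are not shown. Solid lines peak in replicate 1 of circ-KD, where Reln stood at 244 CPM, while the 3 dashed markers stay below 1 CPM in every library.

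Other cell markers also moved with the groups. Apical progenitor markers summed to 1537 to 1694 CPM in circ-KD, 993 to 1257 CPM in mRNA-KD and 885 to 1148 CPM in scramble, and edgeR called 7 and 4 of the 10 higher in circ-KD and mRNA-KD with none lower, beside 14.1% and 8.92% of all genes called higher. With the Xist term 4 and 2 of the 10 were called. Vldlr, Lrp8 and Dab1 are textbook genes of migrating neurons, and the newborn neuron markers summed to 4323 to 4405, 3557 to 4192 and 4031 to 4909 CPM in the same order. Of these 9 markers 1 rose and 2 fell in circ-KD, beside 14.1% and 13.0% of all genes. In mRNA-KD 1 rose and 3 fell, beside 8.92% and 9.09%. Stmn2 fell in both (-0.83 and -0.98) and Map2 rose in both (0.73 and 0.27). With the Xist term 1 of the 9 was called in each. Upper-layer markers summed to 1088 to 1395, 1626 to 2177 and 1822 to 2453 CPM, and 3 and 1 of the 5 fell, beside 13.0% and 9.09% of all genes called lower. With the Xist term 2 and 0 of the 5 were called (2 and 1 at an unadjusted p under 0.05), and DESeq2 and limma-voom each called 3 and 1. Deep-layer neuron markers summed to 1171 to 1422, 884 to 1129 and 897 to 1125 CPM. In circ-KD 4 of the 7 rose, with Foxp2 (log2 fold change 2.64 ± 0.16 SE) and Crym (2.71 ± 0.32) farthest up, and 1 fell. In mRNA-KD 1 rose. With the Xist term 2 and 1 of the 7 were called. Basal progenitor markers summed to 1006 to 1233, 1293 to 1339 and 1304 to 1423 CPM. Of the 5, Eomes (-0.43 ± 0.08) and Insm1 (-0.34 ± 0.08) fell in circ-KD, and 1 fell in mRNA-KD. With the Xist term 0 and 1 of the 5 were called, and 2 and 1 were at an unadjusted p under 0.05. Of 11 ventral inhibitory neuron markers, whose cells can also make Reelin later in life, 7 were below 1 CPM in every library. The part of cell composition in the members' changes was not tested.

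A list of 58 further genes of the pathway, all tested, was read by role. In circ-KD 15 rose and 10 fell against scramble, where 14.1% of all tested genes rose and 13.0% fell. In mRNA-KD 3 rose and 14 fell, where 8.92% rose and 9.09% fell. Between the knockdowns 18 were higher and 8 lower in circ-KD, beside 13.8% and 12.3%. Median changes of the list were 0.08, -0.03 and 0.13 beside -0.01, 0.01 and -0.02 over all tested genes. With the Xist term 18 of the 25 and 14 of the 17 calls against scramble were lost, and 6 of the 26 between the knockdowns.

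Among 7 genes for enzymes that cut Reelin or process its proteases and for the alternative receptor ligand Thbs1, 3 rose in circ-KD and none fell. Over all tested genes 14.1% rose and 13.0% fell there. Thbs1 stood at 8.80, 9.33 and 9.85 CPM in the scramble libraries and at 15.8, 20.0 and 21.5 CPM there (1.03 ± 0.17, adjusted p = 7.15e-04, edgeR's quasi-likelihood test). Furin also rose (0.49 ± 0.14, adjusted p = 0.0158), a call lost without circ-KD replicate 1 (0.37) or scramble replicate 2 (0.50) or 3 (0.47). Adamts3, the protease that inactivates Reelin by cutting its N-terminal part, rose in both knockdowns. Its levels were 12.2, 12.8 and 19.9 CPM in scramble, 23.5, 23.1 and 23.4 CPM in circ-KD and 42.1, 36.7 and 35.2 CPM in mRNA-KD, without overlap between any groups. The change was 0.64 ± 0.16 (adjusted p = 0.00919, lost without scramble replicate 2, 0.53, and with the Xist term, 0.49) and 1.34 ± 0.16 (adjusted p = 1.04e-04), and Adamts3 was the only 1 of the 7 called in mRNA-KD. The difference between the knockdowns passed as well (-0.70, adjusted p = 0.00473).

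Of 9 genes that act with the receptors or in their turnover, 2 rose and 4 fell in circ-KD, and 5 fell in mRNA-KD. The shares of all tested genes were 14.1% and 13.0% in circ-KD, and 9.09% for those that fell in mRNA-KD. Lrpap1, a chaperone that keeps ligands off receptors of this family, had 289, 306 and 222 CPM in scramble, 109.9, 99.2 and 111 CPM in circ-KD and 246, 248 and 238 CPM in mRNA-KD. It fell in circ-KD (-1.35 ± 0.11, adjusted p = 2.57e-06, edgeR's quasi-likelihood test) and not in mRNA-KD by this test (-0.16 ± 0.10, adjusted p = 0.325), and the difference between the knockdowns passed (-1.19 ± 0.11, adjusted p = 8.70e-06). Itgb1, which encodes the integrin beta1 subunit, stood at 204, 203 and 197 CPM in the scramble libraries, at 265, 265 and 249.6 CPM in circ-KD and at 138, 135 and 139.7 CPM in mRNA-KD. It rose in circ-KD (0.37 ± 0.07, adjusted p = 0.00137), fell in mRNA-KD (-0.55 ± 0.07, adjusted p = 1.46e-04) and differed between them (0.91 ± 0.07, adjusted p = 2.67e-06).

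Its partner Itga3, an integrin subunit reported to bind Reelin, fell in both knockdowns, from 12.8, 12.2 and 8.18 CPM in scramble to 4.05, 4.59 and 4.63 CPM with the circSlc45a4 shRNAs (-1.32 ± 0.19, adjusted p = 2.25e-04, edgeR) and 4.77, 6.12 and 6.20 CPM with those against the Slc45a4 mRNA (-0.95 ± 0.19, adjusted p = 0.00359). Efnb2, an ephrin B ligand that associates with the receptors, also fell in both (-0.47, adjusted p = 0.00255, and -0.77, adjusted p = 1.48e-04). Efnb3 rose in circ-KD (0.47, lost without its replicate 1, 0.35). In mRNA-KD Efnb1 (-0.32) and Snx17 (-0.28) fell. Efnb1 lost its call without any of 4 libraries (scramble replicates 2 and 3, knockdown replicates 1 and 2, -0.33 to -0.24), and Snx17 without any of 3 (scramble replicates 1 and 3, knockdown replicate 3, -0.28 to -0.25). With the Xist term 1 of the 9 genes was called in circ-KD and 2 in mRNA-KD. Both Itga3 calls were lost (-1.12 and -0.81). The circ-KD calls of Itgb1 (0.39), Efnb2 (-0.30) and Efnb3 (0.60) and the mRNA-KD calls of Efnb1 (-0.18) and Snx17 (-0.28) were lost as well.

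Of 7 genes for kinases and for the turnover of Dab1, 5 rose in circ-KD and none fell, in the group in which Fyn and Dab1 fell. All tested genes rose there in 14.1% and fell in 13.0% of cases. The kinase genes Src (82.4, 96.7 and 93.8 CPM in scramble and 134, 127 and 127 CPM in circ-KD) and Yes1 (21.4, 19.6 and 21.9 against 32.4, 29.8 and 29.8 CPM) rose by 0.51 ± 0.11 (adjusted p = 0.00435, edgeR) and 0.55 ± 0.09 (adjusted p = 7.44e-04). Cbl (0.50, adjusted p = 5.34e-04), Rnf7 (0.40, adjusted p = 0.00651) and Socs6 (0.39, adjusted p = 0.00567), which act in ubiquitin ligases, rose as well, and all 5 calls held without any 1 library. With the Xist term the Yes1 (0.56), Rnf7 (0.28) and Socs6 (0.37) calls were lost, and 2 of the 7 genes were called in circ-KD and 0 in mRNA-KD. In mRNA-KD Yes1 rose (0.42, adjusted p = 0.00763, lost without scramble replicate 2, 0.37) and Socs7 fell (-0.29, lost without scramble replicate 1 or 2, -0.27 each, or knockdown replicate 1, -0.22). Cul5, the scaffold of the ligase that degrades Dab1, was called in neither.

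Of 6 genes for Rap1 signalling and adhesion, Nck1 (1.21 ± 0.21, adjusted p = 8.04e-04, edgeR) and Rap1a (0.43) rose in circ-KD. With the Xist term 0 of the 6 were called against scramble in either knockdown, with 1 at an unadjusted p under 0.05 in each. In mRNA-KD Nck1 rose (0.65 ± 0.21, adjusted p = 0.0453, lost without any 1 library except scramble replicate 3, 0.43 to 0.74), while Rapgef1, which activates Rap1 downstream of Crk, fell (-0.29, lost without any scramble replicate or mRNA-KD replicate 1, -0.33 to -0.20), as did Rap1b (-0.42, lost without scramble replicate 1, -0.32) and the cadherin gene Cdh2 (-0.29, lost without replicate 1 or 2 of either group, -0.29 to -0.22). Beside 14.1% and 13.0% of all tested genes, 3 rose and 1 fell in circ-KD of 14 genes for PI3 kinase, Akt and the cytoskeleton. Among them the cofilin gene Cfl1 (0.32) and Pik3r2 (0.36) rose and Pik3r3, a regulatory subunit of PI3 kinase, fell (-0.45), and the Pik3r2 call was lost without any 1 library except circ-KD replicate 3 (0.31 to 0.41). In mRNA-KD 3 of the 14 fell, beside 9.09% of all tested genes. The 3 were Map1b (-0.33, lost without scramble replicate 1, -0.29), Limk1 (-0.32, lost without any scramble replicate or mRNA-KD replicate 1, -0.33 to -0.21) and Pik3r3 (-0.23, lost without any 1 library except mRNA-KD replicate 1, -0.25 to -0.20).

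The Cdk5 activators Cdk5r1 (-0.54, adjusted p = 0.0125, edgeR, lost without circ-KD replicate 2, -0.47, or scramble replicate 1, -0.44) and Cdk5r2 (-1.64 ± 0.34, adjusted p = 0.00286, at 1.01 to 2.46 against 3.09 to 6.71 CPM) fell in circ-KD. In mRNA-KD edgeR, DESeq2 and limma-voom called 0 of the 3 Cdk5 genes, with 0, 1 and 0 at an unadjusted p under 0.05. EdgeR called 27.1% of all tested genes in circ-KD and 18.0% in mRNA-KD. Among 12 genes for dynein and partners of Lis1, edgeR and limma-voom each called 3 in circ-KD and 2 in mRNA-KD, all lower in edgeR, and DESeq2 called 5 and 3, among them the dynein subunit genes Dync1h1 and Dync1li1 as higher in circ-KD. Of all tested genes edgeR called 13.0% and 9.09% lower. At an unadjusted p under 0.05 edgeR had 5 and 6 of the 12, and with the Xist term 1 and 0 were called (4 and 4 at an unadjusted p under 0.05). Ywhae, the 14-3-3 epsilon gene whose product protects phosphorylated Ndel1, stood at 776, 703 and 694 CPM in the scramble libraries, at 367, 396 and 408 CPM in circ-KD and at 787, 716 and 679 CPM in mRNA-KD. It fell with the circSlc45a4 shRNAs (-0.89 ± 0.08, adjusted p = 7.44e-06) and differed between the knockdowns (-0.90 ± 0.08, adjusted p = 1.06e-05). Dcx, the microtubule protein of migrating neurons, fell in both, from 2088, 1728 and 1686 CPM to 1124, 1072 and 1361 CPM (-0.63 ± 0.10, adjusted p = 7.01e-04) and 1191, 1176 and 1301 CPM (-0.58 ± 0.10, adjusted p = 0.00195). Pafah1b2, a catalytic partner of Lis1, fell in both (-0.31, adjusted p = 0.00658, and -0.38, adjusted p = 0.00275).

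**Figure D4:**
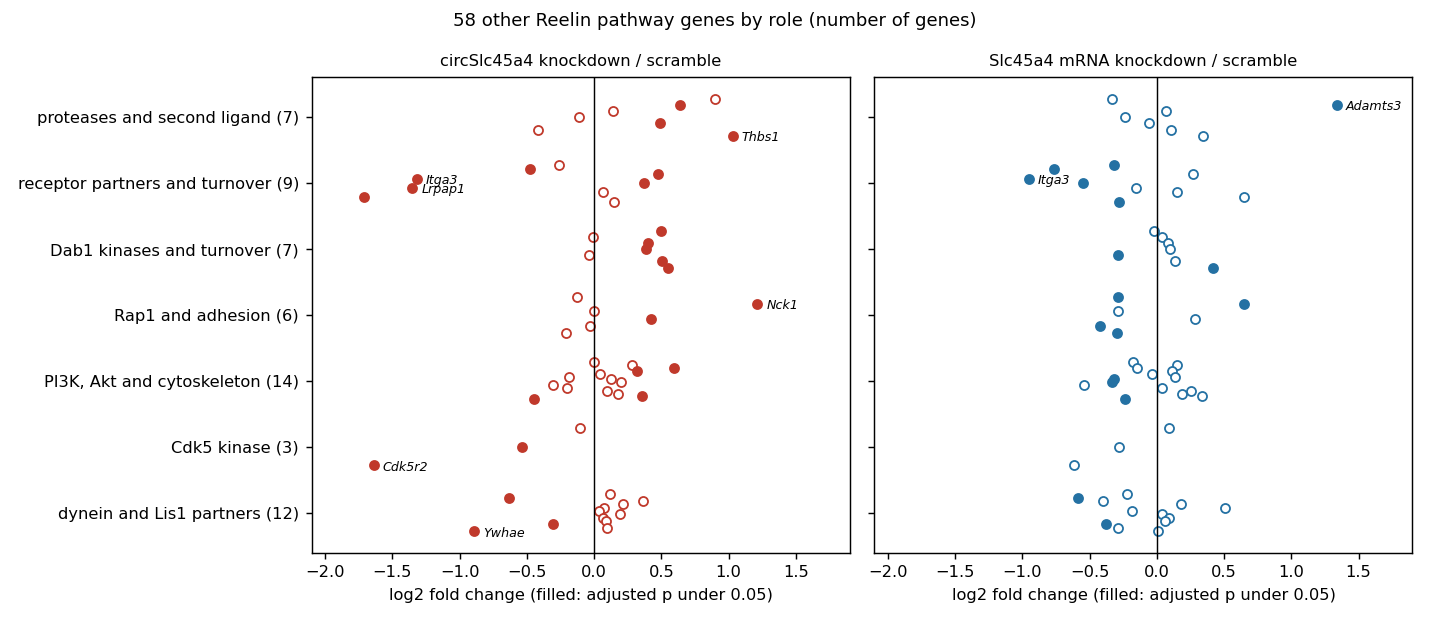
Fitted log2 fold change against scramble of the 58 further pathway genes by role (number of genes in brackets), for circ-KD on the left and mRNA-KD on the right, with filled points where the adjusted p was under 0.05 and some of the larger called changes labelled. Of the Dab1 kinases and turnover genes, 5 of 7 are filled points to the right of 0 in circ-KD, and of the receptor partners 5 of 9 are filled points to the left of 0 in mRNA-KD. Among all tested genes 14.1% were called higher in circ-KD and 9.09% lower in mRNA-KD.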

How the data were processed

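The authors deposited 1 table of whole read counts per gene, not normalized, for 53379 gene IDs and 9 libraries of polyA RNA. Per the submitters' processing notes, the tools were STAR 2.4.2a, bcl2fastq 2.17.1.14 and DESeq2 and the build was mm10, with no roles given. Which counting program, strand setting and annotation served was not given in the sources used here. IDs were joined to GENCODE M21 (GRCm38) without their version suffix, and 53274 received a symbol. The sequences are from RefSeq (GRCm38.p6).

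Low genes were removed with edgeR 4.0.16 (filterByExpr, minimum count 10), libraries scaled by TMM and counts fitted in R 4.3.3 with a quasi-likelihood model of 1 term per group over all 9 libraries (6 residual degrees of freedom). All 3 contrasts between groups were tested by its F test, and p was adjusted by Benjamini-Hochberg over all 17760 genes, with a call under 0.05. The SE of a log2 fold change is its size over the root of F. Replicates varied with a common biological coefficient of 13.85%.

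The members, the list of 58 genes and the cell markers were chosen with earlier results of these data known. The genes named are all members, all called genes of each role against scramble, and the 3 genes nearest in pattern to Reln, Dab1, Vldlr and Lrp8, and some genes that this rule names are not reported here. Alternatives were RLE and upper-quartile factors, DESeq2 1.42.0 with its Wald test, limma-voom (limma 3.58.1), a filter of 1 CPM in 3 libraries, no filter, only the 6 libraries compared, a term for replicate number, a term for log2 Xist, and leaving out each library.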

Additional observations from a re-analysis of the deposited data

How the results depend on the processing

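The number of genes called in circ-KD against scramble was 3386 to 4248 when each library was left out (4814 with all) and 1363 with the Xist term, and of the members 3 to 4 and 0 were called. In mRNA-KD it was 1760 to 2764 (3200 with all), the lowest without scramble replicate 2, and 806 with the Xist term, and of the members 2 to 4 and 1. Between the knockdowns it was 3059 to 4101 (4632 with all), the lowest without circ-KD replicate 1, and 5 to 7 members were called, or 5 with only the 6 libraries compared. Among the members, the called genes of the lists and Slc45a4, no called direction reversed under any alternative that was run. Other genes were not checked for this. Upper-quartile factors moved the share of higher calls from 52.1% to 42.3% in circ-KD against scramble and from 52.8% to 42.1% between the knockdowns. The Xist term moved it to 64.1% and, in mRNA-KD, from 49.5% to 60.9%. The cause was not tested.

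Deviations of same-numbered libraries correlated at -0.195 to 0.178 and those of differently numbered libraries at -0.196 to 0.268. Between the knockdowns same-numbered libraries correlated at 0.084, 0.101 and 0.178, above all differently numbered ones there (-0.112 to 0.004). In the comparisons with scramble same-numbered libraries did not stand out in this way. Whether the replicate numbers mark pairs was thus not settled. With the replicate block 4412, 2713 and 4189 genes and 3, 3 and 6 members were called in the 3 comparisons, and Dab1 (circ-KD), Fyn and Nde1 (mRNA-KD) and Lrp8 and Nde1 (between the knockdowns) lost their calls. With 3 libraries a group, the small changes of Ndel1 against scramble (0.19 in circ-KD and 0.10 in mRNA-KD) were not told from 0 at the threshold used. The Fyn, Crk and Pafah1b1 calls with a log2 change of 0.24 or less were each lost without some libraries.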
